A study of Mus musculus with 8 samples.

Results

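Cholesterol synthesis and SREBP2 target genes were followed as 7 genes chosen by symbol: Srebf2, Insig1, Hmgcs1, Idi1, Fdft1, Sqle and Lss. Each matched 1 of the 43629 genes in the count table, and all 7 passed the filter on low counts that left 12413 genes for testing. RNA was sequenced from lymphoma lines 1.2 and 1.1, which came from C57BL/6 mice with a Myc transgene driven by the immunoglobulin heavy chain enhancer. In each line, early passage cells cultured for 2 h with 250 nM JQ1 were compared with cells cultured for 2 h with DMSO, the vehicle. JQ1 is a small molecule that displaces the BET bromodomain proteins from acetylated chromatin. Each of the 4 groups (JQ1 line 1.2, DMSO line 1.2, JQ1 line 1.1 and DMSO line 1.1) held 2 libraries. All groups carried the Myc transgene, and each line is a single cell line, so the lines stand for themselves and not for Eμ-Myc lymphomas in general.

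SREBP2, encoded by Srebf2, is a transcription factor that is made as a membrane protein of the endoplasmic reticulum, where the escort protein SCAP and the anchor proteins INSIG1 and INSIG2 hold it when sterols are plentiful. When sterols run low, SCAP carries it to the Golgi, proteases encoded by Mbtps1 and Mbtps2 cut it, and the freed part enters the nucleus and switches on genes of sterol synthesis and uptake. Among these are Insig1 itself and the enzymes studied here: Hmgcs1 makes HMG-CoA, Idi1 isomerises isopentenyl diphosphate, Fdft1 joins farnesyl units into squalene, Sqle oxidises squalene, and Lss closes the ring to lanosterol. Dividing lymphoid cells draw on this pathway for membrane cholesterol.

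The promoter windows are shown because Insig1 and Idi1 were the members with the largest rise after JQ1, while Srebf2 and Hmgcs1 held the same 8-letter motif and did not pass the test. Each window covers 250 bases before and 50 after the annotated start, on the plus strand of GRCm38.p6, from RefSeq: chr5:28071162-28071461 for Insig1, chr13:8885356-8885655 for Idi1, chr15:82147019-82147318 for Srebf2 and chr13:119690101-119690400 for Hmgcs1. Capitals mark matches on either strand of TCACCCCA (the core of a sterol regulatory element), of CCAAT (the letters of the NF-Y box, read as ATTGG on the opposite strand) and of CACGTG (the E-box).
Insig1: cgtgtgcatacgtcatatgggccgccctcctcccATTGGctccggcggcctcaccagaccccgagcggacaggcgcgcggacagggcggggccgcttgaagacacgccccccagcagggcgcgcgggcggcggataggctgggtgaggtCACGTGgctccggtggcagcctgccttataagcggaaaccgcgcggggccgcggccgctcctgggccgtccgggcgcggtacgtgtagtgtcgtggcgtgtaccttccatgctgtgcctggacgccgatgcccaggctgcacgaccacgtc
Idi1: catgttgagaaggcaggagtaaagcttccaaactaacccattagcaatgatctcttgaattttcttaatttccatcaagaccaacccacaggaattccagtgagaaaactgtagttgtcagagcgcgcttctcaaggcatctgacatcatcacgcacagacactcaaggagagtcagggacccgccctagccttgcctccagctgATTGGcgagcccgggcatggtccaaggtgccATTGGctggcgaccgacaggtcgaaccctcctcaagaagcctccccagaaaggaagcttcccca
Srebf2: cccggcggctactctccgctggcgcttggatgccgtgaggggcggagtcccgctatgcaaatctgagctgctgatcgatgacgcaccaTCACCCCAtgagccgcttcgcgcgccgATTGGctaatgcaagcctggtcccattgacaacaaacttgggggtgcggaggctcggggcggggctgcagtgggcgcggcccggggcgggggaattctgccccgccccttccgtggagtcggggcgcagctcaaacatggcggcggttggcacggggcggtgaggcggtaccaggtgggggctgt
Hmgcs1: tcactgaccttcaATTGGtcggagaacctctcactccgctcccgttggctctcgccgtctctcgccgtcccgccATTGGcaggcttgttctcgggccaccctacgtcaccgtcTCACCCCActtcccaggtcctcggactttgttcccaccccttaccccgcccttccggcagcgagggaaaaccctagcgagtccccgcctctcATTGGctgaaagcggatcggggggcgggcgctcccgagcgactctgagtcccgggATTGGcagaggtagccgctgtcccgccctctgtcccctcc
TCACCCCA lay at position -162 from the start in Srebf2 and at -137 in Hmgcs1, and in 1.56% of all 32851 windows of this length. CCAAT or its reverse lay in all 5 members with a window, Lss included, and in 37.4% of all windows. CACGTG lay in Insig1 alone of the 5, at -101, and in 7.15% of all windows. GGGCGG, the GC box, which is not capitalised, lay in all 5 and in 35.7% of all windows. None of these matches overlapped another, and positions are those of a match's first base. These matches are letters in a window and not sites shown to be bound. Only exact matches in these windows were sought, so a window without a match may still hold a site. The Lss window, not printed, held no TCACCCCA, and Fdft1 and Sqle had no window. Whether the motifs relate to the changes after JQ1 was not tested.

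Between 10347453 and 13049877 reads per library fell in genes, and the members had 202 to 3962 reads each per library. Levels are given as CPM, the reads of a gene per 1000000 reads of its library after scaling. Markers of other cell types were close to 0. Of the marker lists, T cell (9 genes, summed level at most 0.532 CPM in any library), NK cell (6 genes, at most 0.993 CPM) and erythroid genes (6 genes, at most 0.669 CPM) had no gene past the filter. Cd3e, Cd4, Trac and Ncr1 were at 0 reads in all 8 libraries, as were Lyz2 and S100a8 of the myeloid list and Col1a1 and Dcn of the stromal and endothelial list. In each of these lists 1 gene passed the filter and fell after JQ1 (averaged, edgeR): Itgam of the myeloid list (-0.70, adjusted p = 0.0368) and Cdh5 of the stromal and endothelial list (adjusted p = 3.10e-06). The summed myeloid level was 0.621 to 1.23 CPM in JQ1 line 1.2 and 1.90 to 2.26 CPM in DMSO line 1.2, and 1.16 to 1.92 CPM in JQ1 line 1.1 and 1.15 to 1.44 CPM in DMSO line 1.1. The summed stromal and endothelial level was 0.177 to 0.352 CPM in JQ1 line 1.2 and 1.62 to 1.66 CPM in DMSO line 1.2, and 0.248 to 0.274 CPM in JQ1 line 1.1 and 1.15 to 1.44 CPM in DMSO line 1.1. As a sum, B lineage markers were abundant and moved with the drug. The summed level was 3186 to 3268 CPM in JQ1 line 1.2 and 3583 to 3703 CPM in DMSO line 1.2. It was 2811 to 2857 CPM in JQ1 line 1.1 and 3375 to 3446 CPM in DMSO line 1.1. Levels differed widely within this list. Over the libraries, Ighm had 1405 to 1838 CPM and Ms4a1 1.07 to 8.03 CPM, while Vpreb1 had at most 0.58 CPM and Igll1 at most 0.271 CPM. Of these 11 genes, 9 were tested, 8 fell and Ighm rose after JQ1, and the part of these markers in the results below was not tested. The 2 libraries of DMSO line 1.1 differed more from each other than those of any other group, with a chi-square per degree of freedom of 3.99 over genes, against 1.35 to 2.09 in the other groups. Where a call changed without one of them, that value is given too.

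The first question was what 2 h of JQ1 did to these genes. Insig1, Idi1 and Sqle rose, Fdft1 and Lss fell, and Srebf2 and Hmgcs1 did not pass the test. In this edgeR comparison, averaged over both lines, 62.0% of all genes tested passed (30.7% higher and 31.3% lower), so 5 of 7 is close to the background. The members thus moved in both directions, with a median log2 change of 0.005, against 0.004 over all genes. All changes are relative to library sizes scaled by edgeR's TMM method, which takes the bulk of genes as level between libraries. In bulk samples, fewer cells of a type and less RNA per cell cannot be told apart.

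**Figure D1:**
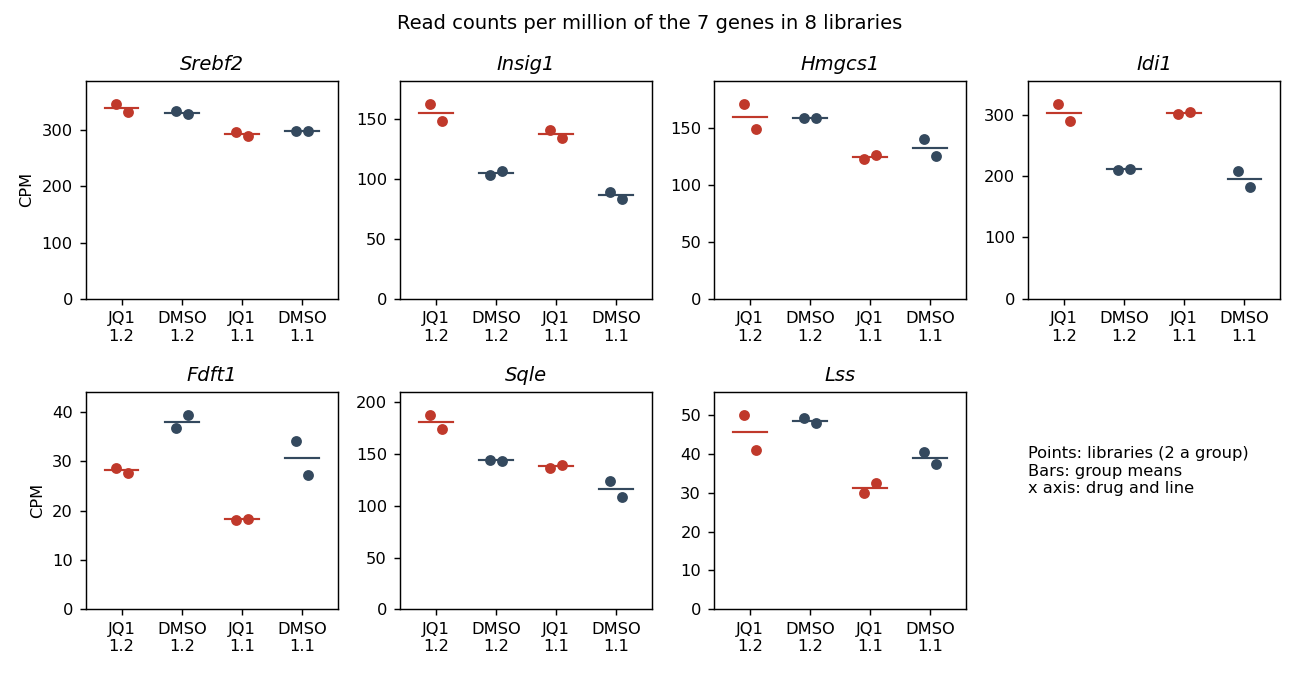
Level of each of the 7 genes in CPM (y axis, from 0) in the 4 groups (x axis, drug above line). Points are the 2 libraries of a group and bars are group means. For Insig1, Idi1 and Sqle both JQ1 libraries lie above both DMSO libraries in each line, for Fdft1 both lie below, and for Hmgcs1 the groups overlap in each line.

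Srebf2 lies on chromosome 15 at 82147181 to 82205379 (GRCm38, plus strand). It had 346 and 332 CPM in the JQ1 libraries of line 1.2, against 335 and 328 CPM in the DMSO libraries. In line 1.1 it had 296 and 290.2 CPM with JQ1, against 298 and 298 CPM with DMSO. The groups overlapped in line 1.2, and in line 1.1 the JQ1 libraries lay just below the DMSO libraries. Averaged over lines, the log2 change came to 0.005 ± 0.032 (SE), with a 95% interval from -0.061 to 0.070 and an adjusted p of 0.906 by edgeR's quasi-likelihood test. The sign of so small a value turned with upper-quartile scaling (-0.013), with library totals (-0.039) and with a stricter filter on low counts, and the call did not.

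Insig1, the sterol-sensitive anchor of the SREBP pathway (chromosome 5, 28071363 to 28078662), was the member with the largest rise. It had 162 and 148 CPM in JQ1 libraries of line 1.2, against 103 and 106 CPM in DMSO libraries. Line 1.1 showed the same order, with 141 and 134 CPM with JQ1, against 89.4 and 82.9 CPM with DMSO. The JQ1 libraries lay above the DMSO libraries in each line, with no overlap. The averaged rise was 1.53-fold, a log2 change of 0.62 ± 0.041 (SE) with an edgeR adjusted p of 2.85e-12.

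Hmgcs1, the synthase near the entry of the mevalonate pathway (chromosome 13, 119690379 to 119708260), had 170.4 and 149 CPM in JQ1 libraries of line 1.2, against 158 and 158 CPM in DMSO libraries. In line 1.1 it had 122 and 126 CPM with JQ1, against 139.7 and 125 CPM with DMSO. The groups overlapped in both lines. Averaged over lines, the log2 change came to -0.04 ± 0.043 (SE), with a 95% interval from -0.13 to 0.05 and an edgeR adjusted p of 0.413. Without DMSO line 1.1 replicate 2, the line 1.1 change passed (-0.17, adjusted p = 0.0129), and with all libraries it was -0.10 (adjusted p = 0.208).

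Idi1, the isomerase that interconverts the building blocks of isoprenoids (chromosome 13, 8885501 to 8892451), rose too. It had 317 and 290.2 CPM in JQ1 libraries of line 1.2, against 211 and 212 CPM in DMSO libraries. In line 1.1 it had 301 and 304 CPM with JQ1, against 209 and 183 CPM with DMSO. The libraries did not overlap in either line. The averaged rise was 1.49-fold, a log2 change of 0.57 ± 0.039 (SE) with an edgeR adjusted p of 5.98e-12. Its neighbour and paralog Idi2 had at most 1 read in a library. Idi1 shares 323 exon bases with Gm48574 and Hmgcs1 shares 557 with Gm48342, both on the opposite strand. Neither Gm48574 nor Gm48342 is in the count table.

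Fdft1, squalene synthase, commits farnesyl diphosphate to sterols (chromosome 14, 63145150 to 63179578, minus strand), and it moved the opposite way. It had 28.7 and 27.7 CPM in JQ1 libraries of line 1.2, against 36.7 and 39.4 CPM in DMSO libraries. Line 1.1 showed the same order, with 18.2 and 18.4 CPM with JQ1, against 34.1 and 27.25 CPM with DMSO. The JQ1 libraries lay below the DMSO libraries in each line. The averaged log2 change was -0.60 ± 0.069 (SE) with an edgeR adjusted p of 5.47e-08, so that its level in DMSO was 1.51-fold that in JQ1. Fdft1 shares 774 exon bases with Ctsb, a cathepsin gene on the opposite strand, and the strand setting of the counting is not given in the sources used here. Ctsb had 930 to 1364 reads per library and rose by 0.26 (edgeR adjusted p = 5.39e-06), in the direction opposite to that of Fdft1.

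Sqle, squalene epoxidase (chromosome 15, 59315077 to 59331192), had 187.5 and 174 CPM in JQ1 libraries of line 1.2, against 144 and 143 CPM in DMSO libraries. In line 1.1, Sqle had 137 and 139 CPM with JQ1, against 124 and 108 CPM with DMSO. The JQ1 libraries lay above the DMSO libraries in each line. The averaged rise was 1.22-fold, a log2 change of 0.29 ± 0.041 (SE) with an edgeR adjusted p of 1.71e-06.

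Lss, lanosterol synthase (chromosome 10, 76531588 to 76557138), had 49.9 and 41.05 CPM in JQ1 libraries of line 1.2, against 49.1 and 47.9 CPM in DMSO libraries. In line 1.1, Lss had 29.8 and 32.55 CPM with JQ1, against 40.3 and 37.3 CPM with DMSO. The groups overlapped in line 1.2, and in line 1.1 the JQ1 libraries lay below. The averaged log2 change was -0.21 ± 0.061 (SE) with an edgeR adjusted p of 0.00495. It did not pass without JQ1 line 1.2 replicate 2 (-0.14, adjusted p = 0.0555). Lss overlaps an antisense transcript, 4930483K19Rik, by 381 exon bases, and that gene had 0 to 3 reads per library.

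Within each line, the members' calls were nearly those of the average. In line 1.2, where 49.4% of all genes passed (24.4% higher, 25.0% lower), 3 members rose and 1 fell. In line 1.1, where 51.0% passed (24.9% higher, 26.1% lower), 3 rose and 2 fell. The JQ1 and DMSO libraries did not overlap for 4 of 7 members in line 1.2 and for 6 of 7 in line 1.1, against 75.2% and 73.3% of all genes. Insig1 changed by 0.57 ± 0.057 in line 1.2 and 0.67 ± 0.059 in line 1.1, and Idi1 by 0.52 ± 0.056 in line 1.2 and 0.62 ± 0.056 in line 1.1 (log2 ± SE). Sqle changed by 0.33 ± 0.057 in line 1.2 and 0.24 ± 0.060 in line 1.1, where it was 0.15 without DMSO line 1.1 replicate 2 and still passed. Fdft1 changed by -0.44 ± 0.091 in line 1.2 and -0.76 ± 0.10 in line 1.1. Lss was at -0.09 ± 0.082 in line 1.2 (edgeR adjusted p = 0.377) and fell in line 1.1 (-0.32 ± 0.090, adjusted p = 0.00439). Both values of Lss turned on 1 library: the fall in line 1.1 did not pass without JQ1 line 1.1 replicate 1 (-0.25, adjusted p = 0.0800), and in line 1.2 the change passed without JQ1 replicate 1 (-0.24, adjusted p = 0.0485) and was 0.04 without JQ1 replicate 2.

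**Figure D2:**
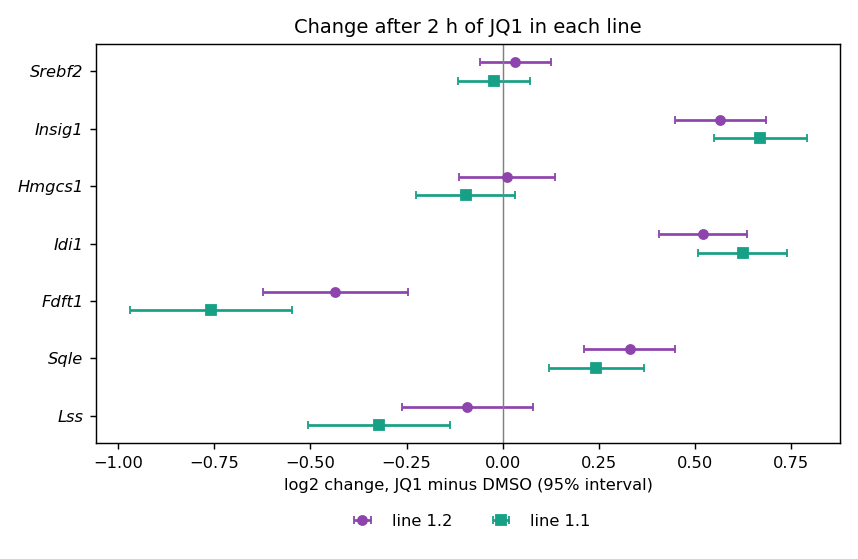
Log2 change of each gene, JQ1 minus DMSO (x axis), in line 1.2 (circles) and line 1.1 (squares), with 95% intervals from edgeR. Insig1 and Idi1 lie between 0.52 and 0.67 in both lines, Fdft1 lies at -0.44 and -0.76, and the intervals of Srebf2 and Hmgcs1 cover 0 in both lines.

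The difference between these effects was tested directly. By edgeR, DESeq2 or limma-voom, 0 of the 7 members passed (edgeR adjusted p from 0.582 to 0.861), where 0.113% of all genes, 14 in number, passed by edgeR. Leaving out single libraries moved that 14 to between 8 (without JQ1 line 1.1 replicate 1 or DMSO line 1.2 replicate 1) and 459 (without DMSO line 1.1 replicate 1), and left the members at 0. At an unadjusted p under 0.05 there were 1000 of 12413 genes and 1 of 7 members. That member was Fdft1, with a difference of 0.32 ± 0.14 (line 1.2 minus line 1.1, SE, unadjusted p = 0.0280, adjusted p = 0.582). It was 0.14 without DMSO line 1.1 replicate 1 and 0.46 without DMSO line 1.1 replicate 2. For Insig1 the difference was -0.10 with a 95% interval from -0.27 to 0.07, and for Idi1 it was -0.10 with an interval from -0.27 to 0.06. A p that misses the threshold does not show that JQ1 acted alike in the lines.

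The rest of the synthesis pathway was as divided as the members. Of the 16 other enzymes, 5 rose, 5 fell and 6 missed the threshold (edgeR averaged effect), and the median log2 change was -0.04. Together with the 5 members that are enzymes, 7 of 21 rose, 7 fell and 7 did not pass, against 62.0% of all genes past the threshold. Acat2, which makes acetoacetyl-CoA at the start of the pathway, rose by 0.56 ± 0.065. It had 58.4 and 54.8 CPM in JQ1 libraries of line 1.2, against 38.2 and 42.15 CPM in DMSO libraries, and 56.2 and 52.4 CPM with JQ1 in line 1.1, against 40.03 and 30.02 CPM with DMSO. Tm7sf2, a sterol reductase at 4.53 CPM on average, rose by 0.76 ± 0.17 and Hsd17b7, a ketosteroid reductase of the pathway, by 0.37 ± 0.073. Erg28, a scaffold of the demethylating enzymes, fell by 0.33 on the log2 scale, with 30.7 and 29.5 CPM in JQ1 libraries of line 1.2 against 36.4 and 38.75 CPM in DMSO libraries. Some neighbouring steps thus differed in sign: Idi1 rose, Fdps (-0.19), which makes farnesyl diphosphate, fell, Sqle rose and Lss fell. Others did not: Fdft1 fell as Fdps did, and Cyp51, which follows Lss, did not pass (-0.05). These steps were not tested against each other.

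**Figure D3:**
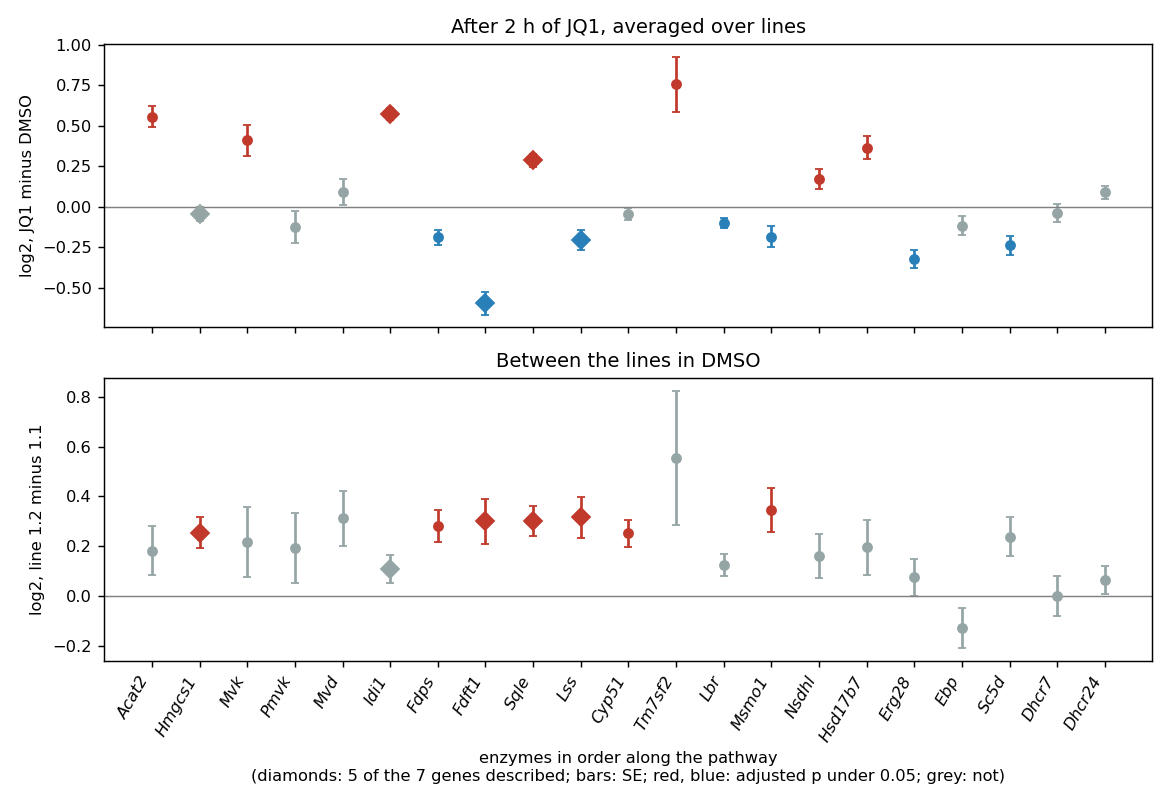
Log2 differences of the 21 sterol synthesis enzymes in their order along the pathway (x axis), with SE bars. The upper panel gives JQ1 minus DMSO averaged over lines, with 7 enzymes higher, 7 lower and 7 not past the threshold. The lower panel gives line 1.2 minus line 1.1 in DMSO, with 7 higher and 0 lower. Diamonds are members.

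Of the genes that process SREBP and sense sterols, 6 of 15 were higher, 6 lower and 3 not past the threshold (median -0.04). Over all genes 30.7% were higher and 31.3% lower in this comparison, and the counts of this list and of those below are to be read against these shares. Scap rose slightly (0.12 ± 0.037, edgeR adjusted p = 0.00899), a call lost with library totals as scaling (0.07, adjusted p = 0.0967). Insig2, which acts beside Insig1, fell by 0.40 on the log2 scale, with 7.48 and 7.98 CPM in JQ1 libraries of line 1.2 against 10.02 and 9.19 CPM in DMSO libraries, and 6.03 and 6.84 CPM with JQ1 in line 1.1 against 8.96 and 9.18 CPM with DMSO. Averaged over lines, the 2 INSIG genes therefore moved in opposite directions. By line, the fall of Insig2 passed in line 1.1 (-0.50, edgeR adjusted p = 0.00802) and did not pass in line 1.2 (-0.31, adjusted p = 0.0779). Its JQ1 and DMSO libraries did not overlap in either line, as for 75.2% of all genes in line 1.2 and 73.3% in line 1.1. Of the SREBP proteases, Mbtps1 rose (0.24 ± 0.036) and Mbtps2 fell (-0.50 ± 0.054). Rnf145, a ubiquitin ligase of sterol feedback, fell (-0.50 ± 0.037), and so did Erlin1 (-0.30 ± 0.041), which takes part in the sterol-regulated removal of membrane proteins. Srebf1, which encodes SREBP1, was at -0.07 ± 0.040 (adjusted p = 0.128), and with library totals as scaling it passed (-0.11, adjusted p = 0.0164).

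Of 9 other SREBP2 targets, 4 rose, 3 fell and 2 did not pass (median 0.07). Sec14l1 rose by 0.56 ± 0.049 and Aacs, which activates acetoacetate in the cytosol, by 0.51 ± 0.041. Stard4, a carrier of cholesterol between membranes, fell (-0.41 ± 0.050), and so did the retinol dehydrogenase gene Rdh11 (-0.28 ± 0.056). Of 15 fatty acid genes that SREBP1 controls, 12 were tested, 5 rose and 4 fell (median 0.02). The desaturase gene Scd1 had 195 and 181 CPM in JQ1 libraries of line 1.2, against 309.6 and 294 CPM in DMSO libraries, and 138 and 154 CPM with JQ1 in line 1.1, against 272 and 271 CPM with DMSO. Its averaged change was -0.79 ± 0.038, and that of the elongase gene Elovl6 was -0.89 ± 0.047 (SE). Acly, which makes cytosolic acetyl-CoA from citrate, rose by 0.43 ± 0.031 and Acss2, which makes it from acetate, by 1.52 ± 0.13, at 7.26 CPM on average.

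Of 15 genes of LXR signalling, sterol efflux and esterification, 10 were tested, and 6 rose, 0 fell and 4 missed the threshold, the median being 0.28 (edgeR; 0 fell also at an unadjusted p under 0.05 and by DESeq2, and 1 fell with library totals as scaling, without JQ1 line 1.1 replicate 2 or without DMSO line 1.1 replicate 1). The share called is close to the 62.0% of all genes, whose median change was 0.004, and the number higher was 5 to 7 with each library left out in turn. Hsd3b7, an enzyme of bile acid synthesis at 5.53 CPM on average, rose by 1.15 ± 0.14, the sterol transfer protein gene Osbp by 0.37 ± 0.040, the phospholipid acyltransferase gene Lpcat3 by 0.33 ± 0.062 and Npc2, which exports cholesterol from lysosomes, by 0.17 ± 0.035. Abcg1 of this list was at -0.21 ± 0.10 (edgeR adjusted p = 0.078), and Abca1 and Nr1h3 did not pass the filter on low counts. In the branch that uses isoprenoids for other ends than sterols, 6 of 15 genes rose and 5 fell (median -0.002). The methyltransferase gene Icmt rose by 0.57 ± 0.044, the farnesyltransferase subunit gene Fnta by 0.54 ± 0.047 and Dhdds, which makes dolichol precursors, by 0.35 ± 0.044, while the prenyl protein protease gene Zmpste24 fell (-0.26 ± 0.043).

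**Figure D4:**
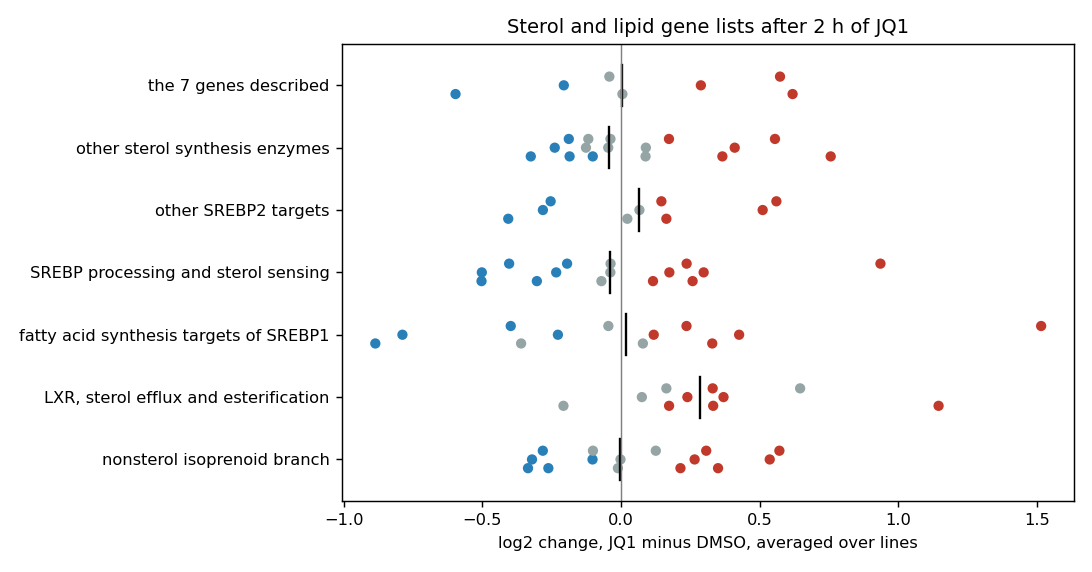
Log2 change of every tested gene, JQ1 minus DMSO averaged over lines (x axis), in the 7 genes and 6 further lists (rows). Red and blue points passed the threshold higher and lower, grey points did not, and black bars are list medians, which run from -0.04 to 0.28.

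The second question was whether the lines themselves differed. In DMSO, 6 of 7 members were higher in line 1.2 than in line 1.1 and 0 were lower (also 0 at an unadjusted p under 0.05 and by DESeq2), where 6.77% of all genes passed (3.59% higher, 3.17% lower). The log2 differences were 0.32 ± 0.083 for Lss, 0.30 ± 0.059 for Sqle, 0.30 ± 0.089 for Fdft1, 0.28 ± 0.060 for Insig1, 0.25 ± 0.061 for Hmgcs1 and 0.15 ± 0.045 for Srebf2 (SE, edgeR adjusted p from 0.00188 for Sqle to 0.0431 for Fdft1). Idi1 did not pass (0.11 ± 0.057, adjusted p = 0.289). For all 7 members both DMSO libraries of line 1.2 lay above both of line 1.1, as for 23.7% of all genes. The members also shifted together between the libraries of some groups, as described below. These counts, and those under JQ1, are therefore not counts of independent genes. DESeq2 called 2 of the 7 members, Insig1 and Sqle, against 6 in edgeR, and 306 genes in all, against 840. B lineage markers also differed, with 2 of 9 higher in line 1.2 in DMSO and 5 of 9 under JQ1 by edgeR, and their part in the line difference was not tested.

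These DMSO calls rested on few libraries. Without DMSO line 1.2 replicate 1, 2 members passed, and without DMSO line 1.2 replicate 2, 1 member passed. Sqle kept its call without any 1 library. Insig1 did not pass without DMSO line 1.2 replicate 2 (0.26, adjusted p = 0.0891). Hmgcs1 did not pass without DMSO line 1.2 replicate 1 (0.25, adjusted p = 0.0843) or replicate 2 (0.25, adjusted p = 0.103). Lss did not pass without DMSO line 1.2 replicate 1 (0.29, adjusted p = 0.145) or replicate 2 (0.33, adjusted p = 0.115), or without DMSO line 1.1 replicate 2 (0.26, adjusted p = 0.0582). Srebf2 kept its call without a DMSO library of line 1.1 and lost it without any 1 of the other libraries (0.13 to 0.17, adjusted p from 0.0629 to 0.245). Fdft1 kept its call without DMSO line 1.1 replicate 1 and lost it without any 1 of the other libraries (0.16 to 0.34, adjusted p from 0.0586 to 0.332). Without DMSO line 1.1 replicate 1, Idi1 passed too (0.20, adjusted p = 0.00692). In every one of these fits the 7 differences stayed above 0.

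Under JQ1, with other libraries, 5 of 7 members were higher in line 1.2 and 0 lower (also 0 at an unadjusted p under 0.05 and by DESeq2), where 6.40% of all genes passed (3.49% higher, 2.92% lower). The differences were 0.62 ± 0.10 for Fdft1, 0.55 ± 0.088 for Lss, 0.39 ± 0.057 for Sqle, 0.36 ± 0.062 for Hmgcs1 and 0.21 ± 0.045 for Srebf2 (SE, edgeR adjusted p from 5.60e-05 to 0.00458). Insig1 missed the threshold (0.18 ± 0.055, adjusted p = 0.0583) by edgeR, and Idi1 did not pass either (0.006 ± 0.054, adjusted p = 0.976, 95% interval from -0.11 to 0.12). Both JQ1 libraries of line 1.2 lay above both of line 1.1 for 6 members, as for 27.4% of all genes, and these 6 lay above under DMSO too, as did 11.4% of all genes. Srebf2, Hmgcs1, Fdft1, Sqle and Lss were called higher in line 1.2 under both treatments, as were 1.55% of all genes. Without JQ1 line 1.2 replicate 1, 3 members passed, the calls of Srebf2 (0.18, adjusted p = 0.141) and Hmgcs1 (0.26, adjusted p = 0.0591) being lost. Insig1 passed without DMSO line 1.1 replicate 1 (0.17, adjusted p = 0.00674) or replicate 2 (0.17, adjusted p = 0.00809). Srebf2 also missed without JQ1 line 1.1 replicate 1 (0.22, adjusted p = 0.0568) or replicate 2 (0.19, adjusted p = 0.105).

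**Figure D5:**
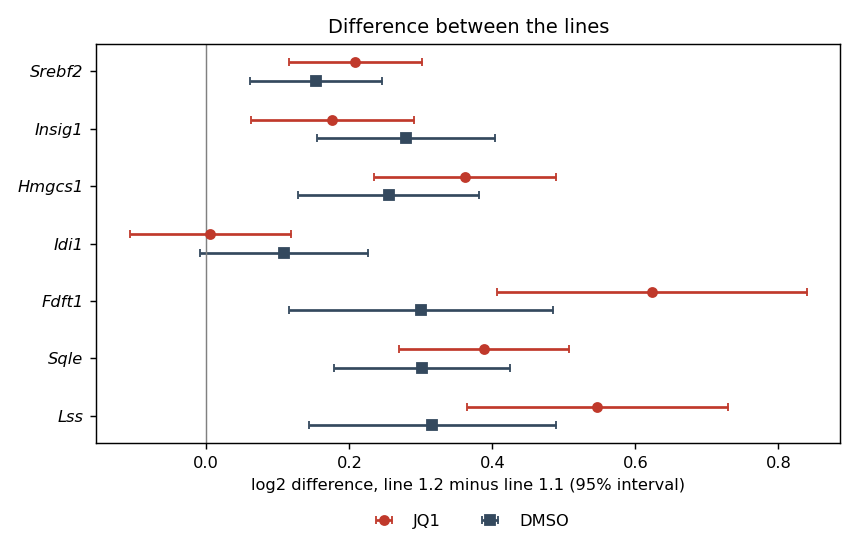
Log2 difference of each gene between the lines, line 1.2 minus line 1.1 (x axis), under JQ1 (circles) and DMSO (squares), with 95% intervals from edgeR. All 7 points lie above 0 under either treatment, from 0.006 (Idi1 under JQ1) to 0.62 (Fdft1 under JQ1).

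Other genes of the pathway differed between the lines too. Over the 16 other sterol enzymes in DMSO, the median difference was 0.20, against 0.003 over all genes. By edgeR 3 of them were higher in line 1.2, as were 3.59% of all genes, and 0 were lower (also 0 at an unadjusted p under 0.05 and by DESeq2). These were Msmo1, the sterol methyl oxidase (0.35 ± 0.089), Fdps (0.28 ± 0.063) and Cyp51, the lanosterol demethylase (0.25 ± 0.054), and they were the 3 called under JQ1 too (0.47 for Msmo1, 0.28 for Fdps and 0.25 for Cyp51). DESeq2 called 1 of the 3 in DMSO, Cyp51, and 2 under JQ1, where Fdps missed (adjusted p = 0.0789). The DMSO calls also turned on single libraries: Fdps missed without DMSO line 1.2 replicate 1 (adjusted p = 0.117), Cyp51 without DMSO line 1.2 replicate 2 (adjusted p = 0.129), and Msmo1 without DMSO line 1.2 replicate 2 (adjusted p = 0.262) or DMSO line 1.1 replicate 2 (adjusted p = 0.0652). The JQ1 calls did so too: each missed without JQ1 line 1.1 replicate 1 (adjusted p = 0.0906 for Msmo1, 0.201 for Fdps and 0.123 for Cyp51), as did Msmo1 without JQ1 line 1.2 replicate 1 (adjusted p = 0.174), Fdps without JQ1 line 1.2 replicate 1 (0.0527) or replicate 2 (0.110), and Cyp51 without JQ1 line 1.2 replicate 2 (0.120) or JQ1 line 1.1 replicate 2 (0.0585). Stard4 was higher in line 1.2 in DMSO (0.47 ± 0.068, edgeR adjusted p = 4.41e-05), and so was the desaturase gene Scd2 (0.41 ± 0.050, adjusted p = 4.07e-06), while Acaca, which makes malonyl-CoA, was lower (-0.68 ± 0.047, adjusted p = 1.83e-10). By edgeR in DMSO, 2 of 9 other SREBP2 targets were higher and 0 lower, and of 12 fatty acid genes 2 were higher and 1 lower. Of 15 genes that process SREBP and sense sterols, 1 was higher, Srebf1 (0.25 ± 0.056, adjusted p = 0.00759), and 0 lower. DESeq2 did not call Srebf1 there (adjusted p = 0.095). Under JQ1, Srebf1 passed too by edgeR (0.29 ± 0.057, adjusted p = 0.00166). Of the 10 tested genes of LXR signalling and efflux, 0 passed in DMSO by edgeR, DESeq2 or limma-voom, and 1 was higher at an unadjusted p under 0.05. The same counts, 0 and 1, held for the 15 isoprenoid genes. With 6.77% of all genes past the threshold in DMSO, 0 of so few genes is close to the background. Under JQ1, where 6.40% passed, 0 of the LXR and efflux genes and 1 isoprenoid gene, Rce1, passed by edgeR. Rce1 was higher in line 1.2 (0.33 ± 0.089, edgeR adjusted p = 0.0232) and missed by DESeq2 (adjusted p = 0.277).

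The members also moved together between the 2 libraries of some groups, a pattern seen after the values were known. In JQ1 line 1.2 all 7 were higher in replicate 1, by 0.05 to 0.28 on the log2 scale, as were 50.7% of all genes. In DMSO line 1.1, 6 of 7 were higher in replicate 1, with a median difference of 0.16, as were 50.0% of all genes. In DMSO line 1.2 it was 3 of 7 and in JQ1 line 1.1 it was 2 of 7. The averaged changes of Insig1, Idi1, Sqle and Fdft1 kept their calls without any 1 library.

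Levels between genes were compared per kilobase of annotated exon. Idi1 was the highest member in all 4 groups, at 86.6 ± 5.4 CPM per kb in JQ1 line 1.2 and 60.3 ± 0.35 CPM per kb in DMSO line 1.2, and at 86.3 ± 0.62 CPM per kb in JQ1 line 1.1 and 55.8 ± 5.2 CPM per kb in DMSO line 1.1 (SD, n = 2). In JQ1 line 1.2, Insig1 (50.2 ± 3.2) and Srebf2 (47.2 ± 1.4) followed and did not differ beyond their spread, then Hmgcs1 (34.7 ± 3.4) and Sqle (32.6 ± 1.7), which did not differ beyond their spread either. In DMSO line 1.2, Srebf2 (46.1 ± 0.67) came before Hmgcs1 (34.45 ± 0.039) and Insig1 (33.9 ± 0.72), which did not differ beyond their spread, and Sqle (25.9 ± 0.083). Fdft1 (6.67 ± 0.17 in JQ1 and 9.01 ± 0.45 in DMSO) and Lss (4.22 ± 0.58 in JQ1 and 4.49 ± 0.082 in DMSO) were the lowest in line 1.2. In JQ1 line 1.1 the order was Insig1 (44.4 ± 1.6), Srebf2 (40.8 ± 0.61), Hmgcs1 (27.0 ± 0.60), Sqle (24.9 ± 0.32), Fdft1 (4.33 ± 0.040) and Lss (2.89 ± 0.18) after Idi1. In DMSO line 1.1 Srebf2 (41.5 ± 0.051) came after Idi1, then Hmgcs1 (28.8 ± 2.3) and Insig1 (27.85 ± 1.5), which did not differ beyond their spread, then Sqle (21.0 ± 2.1), Fdft1 (7.26 ± 1.1) and lastly Lss. The order depends on the length used, and it changed with the principal transcript in place of all exons, a choice made after seeing the data. Sqle then had 52.1 ± 0.17 CPM per kb in DMSO line 1.2, above Hmgcs1 (45.7 ± 0.052) and Insig1 (38.8 ± 0.82), and lay above Hmgcs1 in the mean of every group. In DMSO line 1.1, Idi1 (64.7 ± 6.0) and Srebf2 (58.7 ± 0.071) did not differ beyond their spread by this length. Lss (10.4 ± 0.19 in DMSO line 1.2) and Fdft1 (10.3 ± 0.51) did not differ beyond their spread either, and in JQ1 line 1.1 Lss (6.68 ± 0.41) lay above Fdft1 (4.95 ± 0.046).

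A search over 8438 genes at a mean level of 5 CPM or more ranked likeness to each member by the Pearson coefficient of log2 CPM over the 8 libraries, which share drug and line, so no p is given. For Sqle and Lss the most alike included enzymes of the same pathway, Nsdhl (0.98) for Sqle and Msmo1 (0.97) for Lss, beside Aldh2 (0.98) and Elp3 (0.99). Hmgcs1 was most like Cdk10 (0.97) and Elp3 (0.96), and Srebf2 was most like Abca2 (0.98) and Otulinl (0.98). Insig1 was most like Jak2 and Chid1 (0.99 each), Idi1 most like Pttg1ip and Prpsap2 (both above 0.99), and Fdft1 most like Sf3b1 and Letmd1 (0.99 each). With other scalings these coefficients lay between 0.944 and 0.998.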

How the data were processed

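A TruSeq kit turned total RNA into libraries, per the labels' protocols. The deposited values are whole-number counts of reads per Ensembl gene, not normalised by the authors. Per the submitters' processing notes, FastQC, cutadapt 1.7, TopHat, Bowtie2, HTSeq and limma were used with GRCm38 (mm10). Neither annotation release nor strand setting is given in the sources used here. HTSeq summary lines (reads in no gene, 12.3 to 14.4%, and in several, 1.54 to 1.67%) were left out. Reads in no gene made up 14.0 to 14.4% in the JQ1 libraries and 12.3 to 13.1% in the DMSO libraries. The part of this difference in the results was not tested.

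Coordinates and exon lengths are from GENCODE's GRCm38 annotation, by which 42548 genes had a symbol. Promoter windows are from RefSeq, with a window for 5 of the 7 members. CPM is edgeR's, after TMM scaling. Genes were filtered with filterByExpr (minimum count 10, minimum total 15) in edgeR 4.0.16 under R 4.3.3. All 8 libraries entered one model of 4 group means (4 residual degrees of freedom) with two-sided quasi-likelihood tests, Benjamini-Hochberg adjustment over all 12413 genes and a threshold of 0.05. The fit was also run on simulated data in which few genes changed, as many up as down. With 62.0% of genes called after JQ1 here, that run does not show the error rate in these data. A SE is the log2 change divided by the root of F. Nothing in the labels says that replicates are separate cultures; p-values therefore measure only the spread between libraries, possibly technical.

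The members and gene lists were chosen with earlier results of these data known. Named genes are the members, up to 4 genes per list with the smallest p for the averaged JQ1 effect and at least 1 CPM, Srebf1, Scap and Insig2, and 2 most alike genes per member. Genes named for the line difference, or for a step beside a member's, were chosen after their values were seen. Alternatives were other scalings and filters, DESeq2 1.42.0, limma-voom 3.58.1, an additive model, fits of 4 libraries, a replicate block and each library left out. A library left out leaves an arm with 1 sample, assumed to vary like the rest.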

Additional observations from a re-analysis of the deposited data

How the results depend on the processing

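The rises of Insig1, Idi1 and Sqle and the fall of Fdft1 after JQ1 kept their direction and call, averaged and in each line, under all alternatives run. The averaged change of Srebf2 turned its sign with upper-quartile scaling (-0.013), library totals (-0.039) and a filter of at least 5 CPM in at least 2 libraries (-0.00027), and its line 1.2 change did so with library totals (-0.013). The line 1.2 change of Hmgcs1 turned with upper-quartile scaling (-0.0094) and library totals (-0.034).

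With each library left out in turn, signs turned for the averaged changes of Srebf2 (-0.0091 to 0.020) and Hmgcs1 (-0.092 to 0.0056), the line 1.2 changes of Hmgcs1 (-0.090 to 0.10) and Lss (-0.24 to 0.039), the line difference of Idi1 under JQ1 (-0.060 to 0.062) and the difference of the JQ1 effects on Sqle (-0.017 to 0.18). Members lower after JQ1 numbered 1 to 2 averaged, 1 to 2 in line 1.2 and 1 to 3 in line 1.1. Members higher in line 1.2 numbered 3 to 6 under JQ1 and 1 to 7 in DMSO. Genes past the threshold numbered 281 (without JQ1 line 1.1 replicate 1) to 1538 (without DMSO line 1.1 replicate 2) between lines under JQ1, 313 (without DMSO line 1.2 replicate 2) to 1318 (without DMSO line 1.1 replicate 1) between lines in DMSO, and 8 to 459 for the difference of the JQ1 effects (459 without DMSO line 1.1 replicate 1).

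Deviations of same-numbered JQ1 and DMSO libraries correlated at 0.041 in line 1.2 and 0.053 in line 1.1. So low a correlation does not show whether same-numbered libraries were prepared together. With a replicate block, the JQ1 effects differed in 26 genes, against 14, and Insig1 passed between lines under JQ1 (0.18, adjusted p = 0.0444). Insig1 also passed there with library totals (adjusted p = 0.0474), without a filter (0.0221) and in a fit of the 4 libraries compared (0.00445). The JQ1 effects differed in 80 genes without a filter, and in 8 with DESeq2 or the stricter filter. Between lines in DMSO, DESeq2 called 2 members and 306 genes, and a fit of the 4 libraries 4 members (Srebf2 and Fdft1 being lost, adjusted p = 0.149 and 0.125) and 445 genes, against 6 and 840. Under JQ1 they called 327 and 1635 genes, against 795. The cause was not tested. No scaling moved the median of all genes by over 0.1. With 2 libraries a group, small differences may be missed.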
